A study of Homo sapiens with 21 samples.

Results

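The comparison of HEY cells 24 h after transfection with mir-429 against HEY cells 24 h after transfection with a control miRNA rests on 6 of the 21 arrays of the series, 3 per group. They were chosen by the titles of the samples, which name the transfected RNA and the hour. HEY is an established human ovarian cancer cell line. In the labels the comparison arm received a synthetic miRNA, which was taken as the negative control miRNA of the series' design. Both groups were transfected with the same lipid reagent, grown in the same medium and collected at the same hour, and no other treatment is labelled for either group. The other 15 arrays, from untransfected cells at 0 h and from both arms at 48 and 144 h, helped to estimate the spread and are otherwise used only where named. The replicates are called biological in the labels, but the labels do not tell whether separate cultures were transfected. The p-values therefore rest on the variation among these arrays, which may be technical.

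miR-429 belongs to the miR-200 family of microRNAs, which is abundant in epithelial cells and scarce in mesenchymal ones. The family represses mRNAs through short matches to its seed, the bases near the 5′ end of the mature RNA. Its best described targets are ZEB1 and ZEB2, transcriptional repressors that bind E-box motifs at epithelial genes, and in many carcinoma cell lines the family and the ZEB factors oppose each other. The mature sequences are shown because the family splits into 2 seed groups and the described targets used here come from both. They are RefSeq sequences placed on GRCh38.p14, written 5′ to 3′, with seed bases 2 to 8 in capitals. miR-429 lies on the plus strand of chromosome 1 at chr1:1169055-1169076. It shares its whole seed with miR-200b-3p and miR-200c-3p, while miR-200a-3p and miR-141-3p differ from it in the seed by U4C, with positions counted from 1 at the 5′ end.
hsa-miR-429: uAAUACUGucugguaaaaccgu
hsa-miR-200b-3p: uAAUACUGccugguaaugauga
hsa-miR-200c-3p: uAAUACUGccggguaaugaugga
hsa-miR-200a-3p: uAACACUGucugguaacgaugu
hsa-miR-141-3p: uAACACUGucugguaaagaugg
Outside the seed the members differ mainly toward the 3′ end, and 16 of the 22 positions of miR-429 are identical to miR-200b-3p. No probe set on the array was named for miR-429 or its family, so the transfected RNA itself was not measured.

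Levels below are the deposited log2 values, made with RMA (a method that summarises the probes of a probe set after background correction and quantile normalization), and a difference of 1 is a 2-fold change. The arms differed in the control probe sets that read the same transcript near its 3′ and 5′ ends, where a larger difference means less 5′ signal. The mean of this difference for GAPDH and ACTB was 2.54, 2.83 and 3.25 in the mir-429 arrays and 4.004, 4.21 and 4.43 in the control arrays at 24 h. The arms did not overlap, and the mean difference of -1.34 had an exact two-sided permutation p = 0.1, the smallest that 3 against 3 allows. ACTB was at 5.01 ± 0.72 with mir-429 and 6.85 ± 0.57 with control (SD, n = 3 each), and GAPDH at 0.74 ± 0.01 with mir-429 and 1.58 ± 0.54 with control. Untransfected arrays, at 3.76, 2.91 and 2.79, lay between the arms or within the mir-429 range. The 3′ probe sets themselves were close, with GAPDH at 13.71 ± 0.05 with mir-429 and 13.83 ± 0.10 with control. Because the arms did not overlap in the GAPDH and ACTB signal, it and the transfected RNA cannot be fully told apart at 24 h, and each main count is also given from a model with that signal as a covariate. The control arrays lay farther from each other (SD of the difference between arrays 0.24 to 0.45) than the mir-429 arrays did (0.21 to 0.27), with control replicate 2 the most distant, and arrays of different arms differed by 0.43 to 0.61.

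**Figure D1:**
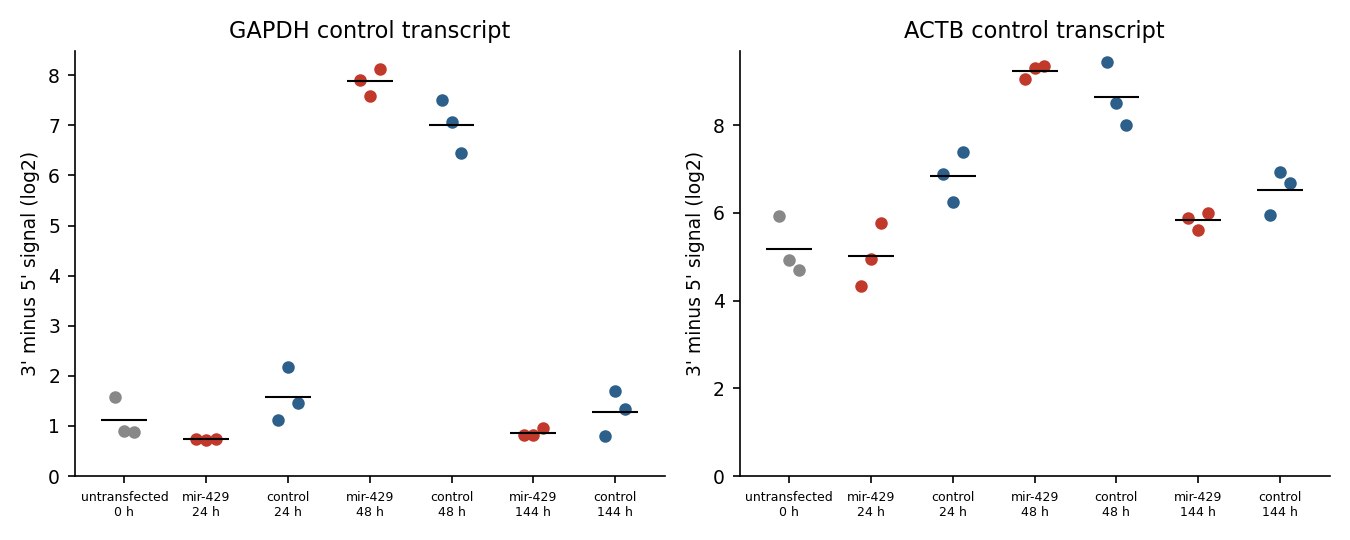
The 3′ minus 5′ signal (log2) of the GAPDH control transcript (left) and the ACTB control transcript (right) on each array, by group in order of time, with red points for mir-429, blue for control and grey for untransfected cells, and a line at each mean. At 24 h the mir-429 arrays sit below the control arrays for both transcripts, with means of 0.74 and 1.58 for GAPDH and of 5.01 and 6.85 for ACTB.

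A total of 3425 of 12879 tested genes (26.6%) differed between the arms at 24 h by limma with Benjamini-Hochberg adjusted p under 0.05. Of these, 1937 genes (15% of those tested) were higher with mir-429 and 1488 (11.6%) were lower. The median size of a called change was 0.58, and 265 rises and 120 falls reached 2-fold. The median over all tested genes was -0.02. The 3 mir-429 values lay wholly above the 3 control values for 2609 genes (20.3%) and wholly below for 2598 (20.2%). With the 3′ minus 5′ signal as a covariate the counts dropped to 355 higher (2.76%) and 259 lower (2.01%), of which 349 and 255 were also called without it. Without the 48 h arrays, whose 3′ minus 5′ signal ran from 7.23 to 8.73, that model called 274 higher (2.13%) and 185 lower (1.44%). The estimates of the 3425 genes shrank to a median size of 0.45 with the covariate and all arrays, while their median SE grew to 0.20, against 0.14 without the covariate, and 3416 of them kept their sign. Leaving out control replicate 3 gave 1193 higher and 955 lower, and leaving out mir-429 replicate 1 gave 1322 and 927. In these bulk samples fewer cells expressing a gene and less RNA of it per cell cannot be told apart.

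**Figure D2:**
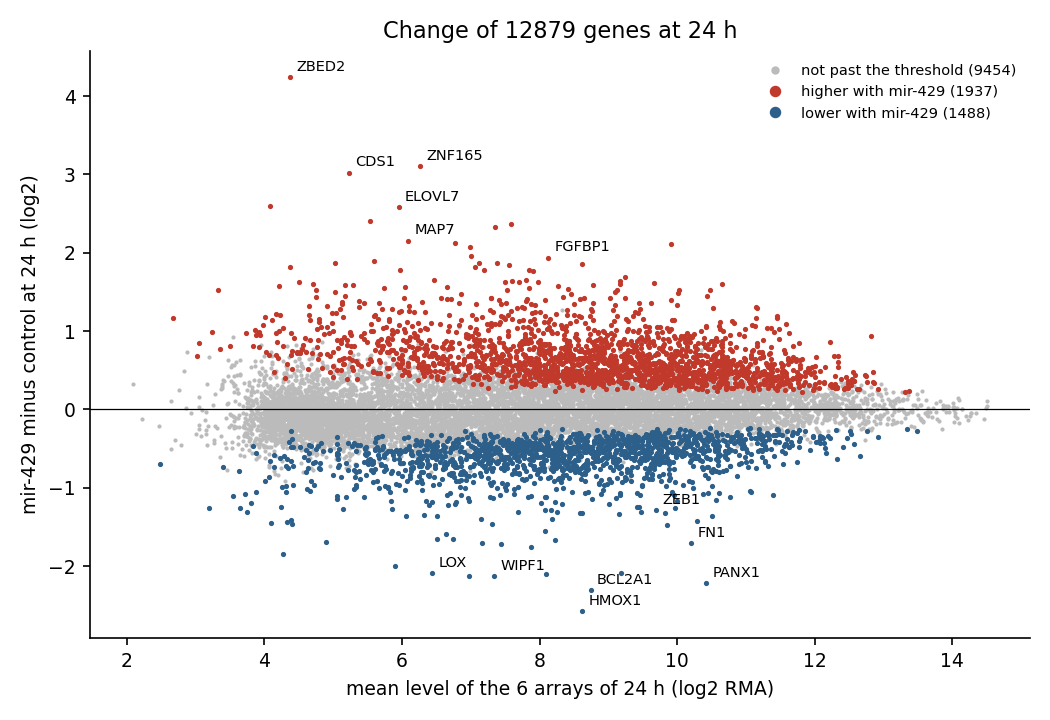
Difference between mir-429 and control at 24 h (log2, vertical axis) against the mean level over the 6 arrays (log2 RMA, horizontal axis) for each of 12879 tested genes. Red points were higher with mir-429 (1937), blue points were lower (1488) and grey points did not pass the threshold, and the largest differences, among them ZBED2 and CDS1 above and HMOX1 and PANX1 below, stand well outside the band of the others.

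Genes described before as targets of the miR-200 family were more often lower than higher with mir-429. Of 53 tested members of that list, 19 (35.8%) fell and 6 (11.3%) rose, against 11.6% and 15% of all tested genes. The median was -0.25, against -0.02 over all tested genes. ZEB1 had levels of 9.38, 8.85 and 8.91 with mir-429, against 10.59, 10.32 and 10.11 with control. All 3 mir-429 arrays lay below the control arrays, and the change was -1.29 ± 0.15 (SE; limma adjusted p = 6.5e-06). The 2 other bright probe sets of ZEB1 gave -1.54 and -1.17. ZEB2 was at 6.88, 6.40 and 6.58 with mir-429 and at 7.18, 7.41 and 6.56 with control, where replicate 3 lay among the mir-429 values, and its difference of -0.43 ± 0.18 did not pass (limma adjusted p = 0.0893). Without control replicate 3 it was -0.67 and passed (limma adjusted p = 0.0079). One of the 2 other bright probe sets of ZEB2 gave -1.21 and the other -0.34.

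Several members that fell act on the actin skeleton or the matrix. WIPF1, which binds the actin nucleation factor WASP, had 6.64, 6.17 and 6.01 with mir-429, against 8.45, 8.44 and 8.33 with control (-2.13 ± 0.13, limma adjusted p = 6.51e-09). Its 3 other bright probe sets moved the same way but by -0.26 to -0.07 only. LOX, the enzyme that cross-links collagen and elastin, was at 5.65, 5.37 and 5.17, against 7.49, 7.77 and 7.20 with control (-2.09 ± 0.13, limma adjusted p = 9.36e-09), and its other bright probe set gave -0.80. Fibronectin (FN1) had 9.23, 9.58 and 9.26 with mir-429 and 10.96, 11.21 and 10.997 with control (-1.70 ± 0.12, limma adjusted p = 3.13e-08). All 6 other bright probe sets of FN1 were lower, by -1.68 to -0.18. None of these genes had a mir-429 array within the control range.

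Falls were also found for the phosphatase PPM1F (-1.72 ± 0.14), the actin-severing CFL2 (-1.24 ± 0.16), ARHGAP19 (-1.12 ± 0.12), the signalling phospholipase PLCG1 (-1.10 ± 0.14), the vesicle coat protein SEC23A (-0.98 ± 0.18) and the metalloprotease inhibitor TIMP2 (-0.68 ± 0.08; limma adjusted p of 0.000604 or less for all 6). CFL2 fell more on its 2 other bright probe sets, by -2.28 and -1.84. Not every described target was lower. PTPRD, a receptor-type phosphatase, had 10.42, 9.94 and 10.04 with mir-429, against 8.58, 9.23 and 8.51 with control (1.36 ± 0.17, limma adjusted p = 2.05e-05), while untransfected cells were at 10.09 on average. The remaining 28 tested members had no call. Without control replicate 3 the members called higher numbered 3, in a fit that called 9.26% of all tested genes higher.

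With the 3′ minus 5′ covariate 15 of the 53 targets were called lower and 1 higher, against 2.01% and 2.76% of all tested genes, and the median was -0.27. Without the 48 h arrays that model called 16 lower and 1 higher. ZEB1 was at -1.50 ± 0.21 with the covariate (limma adjusted p = 0.00041). In the untransfected cells the mean level of all 19 targets that fell lay nearer to the control arm than to the mir-429 arm, which was so for 586 of all 1488 genes called lower. Of the 6 targets that rose, 5 lay nearer to the mir-429 arm, as did 1309 of the 1937 genes called higher. These positions use the same 6 arrays as the comparison and are given as a description chosen after the data were seen.

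Of 27 tested cell junction genes 15 (55.6%) were higher and 0 lower with mir-429, against 15% and 11.6% of all tested genes. The median was 0.48, and 12 had no call. A further 14 listed genes with a probe set were too dim to test, among them E-cadherin (CDH1), at 3.27, 3.35 and 3.29 with mir-429 and 2.99, 3.68 and 2.73 with control, and the adhesion molecule EPCAM, at 2.20, 2.12 and 2.67 with mir-429 and 1.94, 2.57 and 1.97 with control. Both lay below the array medians of 4.21 to 4.29 and overlapped between arms, so neither gene can be said to have changed or not. High values in the mir-429 arrays alone were enough for a gene to be tested. Among the 24 junction genes above the array median on all 6 arrays, 13 were higher and 0 lower. A fit of all genes that bright called 16.6% higher and 13% lower.

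PARD6B, a polarity protein of the tight junction region, had 8.44, 7.67 and 7.82 with mir-429 and 6.16, 6.28 and 6.04 with control (1.82 ± 0.17, limma adjusted p = 6.01e-07). The desmosomal plaque protein PKP2 was at 8.14, 8.17 and 7.93, against 6.39, 6.58 and 5.95 with control (1.78 ± 0.21, limma adjusted p = 1.23e-05). Desmoplakin (DSP), which ties desmosomes to keratins, was at 9.48, 9.28 and 9.23, against 8.19, 7.90 and 8.32 with control (1.20 ± 0.12, limma adjusted p = 1.33e-06). For each of the 3 the arms were well apart. The tight junction scaffold TJP1 had 11.90, 11.89 and 11.85 with mir-429 and 10.87, 11.001 and 10.65 with control (1.04 ± 0.10, limma adjusted p = 1.01e-06), and its other bright probe set gave 0.34. Untransfected cells had TJP1 at 11.87 and PARD6B at 7.93, as high as the mir-429 arm, whereas PKP2 at 6.71 and DSP at 8.67 lay nearer to control. In all, untransfected cells lay nearer to mir-429 for 8 of the 15 risen junction genes and nearer to control for 7. Over all 1937 genes called higher they lay nearer to mir-429 for 1309 and nearer to control for 628.

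Of 30 tested genes of the epithelial state 12 (40%) were higher and 1 (3.33%) lower, against 15% and 11.6% of all tested genes. The median was 0.27, and 17 had no call. Another 20 with a probe set were too dim. CDS1, an enzyme of phospholipid synthesis, had 6.77, 6.74 and 6.69 with mir-429 and 3.24, 4.33 and 3.56 with control. The control mean lay below the array medians, so the rise was at least 2.44 (limma adjusted p = 3.64e-06), and the 2 other bright probe sets gave 2.13 and 2.80. The microtubule-binding MAP7 was at 7.33, 6.87 and 7.31 with mir-429 and 5.01, 5.18 and 4.86 with control (2.16 ± 0.23, limma adjusted p = 3.28e-06).

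MYO5B, a motor of apical recycling vesicles, rose by 1.56 ± 0.18, the epithelial splicing factor ESRP1 by 0.93 ± 0.13 and keratin 7 (KRT7) by 0.83 ± 0.17 (limma adjusted p of 0.00151 or less). The 3 other bright probe sets of KRT7 rose too, by 1.04 to 1.69. The single member that fell was SH3YL1, an SH3 domain protein, at 5.35, 5.55 and 5.70 with mir-429 and 6.67, 6.53 and 6.50 with control (-1.03 ± 0.15, limma adjusted p = 8.17e-05). Among the 21 epithelial state genes above the array median on all 6 arrays 7 were higher and 1 lower. A fit of all genes that bright called 16.6% higher and 13% lower. With the covariate 10 junction genes and 7 epithelial state genes were called higher, with medians of 0.36 and 0.25, and without the 48 h arrays that model called 9 and 7. Of all tested genes these models called 2.76% and 2.13% higher.

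Promoters of 4 of these genes are shown because ZEB1 is known to bind the E-box CACCTG, read on either strand, and these 4 had the smallest p among the risen junction and epithelial state genes with a promoter in the table; all 4 hold it. Each is 300 bases of GRCh38.p14 from RefSeq, from 250 bases before to 50 after the annotated start of the gene, in the gene's own direction, with the motif in capitals. TJP1 is at chr15:29969000-29969299 on the minus strand, DSP at chr6:7541421-7541720 on the plus strand, MAP7 at chr6:136550373-136550672 on the minus strand and CDS1 at chr4:84582877-84583176 on the plus strand.
TJP1: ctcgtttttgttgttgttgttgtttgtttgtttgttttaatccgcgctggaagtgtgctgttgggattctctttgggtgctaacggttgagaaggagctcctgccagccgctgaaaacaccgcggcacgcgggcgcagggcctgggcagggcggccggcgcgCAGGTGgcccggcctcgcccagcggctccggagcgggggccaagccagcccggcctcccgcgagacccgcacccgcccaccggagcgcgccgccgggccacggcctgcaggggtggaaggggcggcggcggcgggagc
DSP: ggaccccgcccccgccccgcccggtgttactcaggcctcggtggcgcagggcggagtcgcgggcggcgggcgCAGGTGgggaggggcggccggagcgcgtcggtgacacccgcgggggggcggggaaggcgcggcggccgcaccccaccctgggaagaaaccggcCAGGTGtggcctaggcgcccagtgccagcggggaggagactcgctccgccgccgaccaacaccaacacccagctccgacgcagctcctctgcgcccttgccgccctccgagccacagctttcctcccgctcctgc
MAP7: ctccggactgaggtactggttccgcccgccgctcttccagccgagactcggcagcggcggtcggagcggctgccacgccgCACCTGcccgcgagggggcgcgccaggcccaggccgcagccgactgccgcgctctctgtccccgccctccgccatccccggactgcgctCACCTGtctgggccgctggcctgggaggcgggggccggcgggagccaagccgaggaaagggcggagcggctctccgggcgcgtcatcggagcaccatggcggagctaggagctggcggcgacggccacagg
CDS1: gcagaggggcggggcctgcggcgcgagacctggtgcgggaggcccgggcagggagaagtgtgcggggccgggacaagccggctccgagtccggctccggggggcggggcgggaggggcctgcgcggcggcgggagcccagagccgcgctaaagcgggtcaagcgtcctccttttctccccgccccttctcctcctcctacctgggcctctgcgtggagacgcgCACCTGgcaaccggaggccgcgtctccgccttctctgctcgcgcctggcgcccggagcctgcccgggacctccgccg
The motif was found once in TJP1 and CDS1 and at 2 places in DSP and MAP7. It lies 88 bases before the start in TJP1 and 27 before it in CDS1. Over all 27305 promoters of that length 20.6% held the motif on either strand, and over the 10441 tested genes with a promoter 18.2% did. It was in 18.3% of promoters of all genes called higher and 16.2% of those called lower. Of the junction genes called higher 7 of 11 with a promoter held it, against 1 of 9 tested junction genes not called higher. For epithelial state genes it was the other way round, with 4 of 9 called higher and 7 of 13 not called higher. A match is a stretch of letters and not a binding site.

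The 15 largest rises were taken by their fitted difference among called genes whose arms did not overlap. For 3 of them, ZBED2, CDS1 and COL8A1, control was below the array medians, so their place in the order is not known. ZBED2, a zinc finger transcription factor, had 6.60, 6.39 and 6.48 with mir-429 and 2.18, 2.31 and 2.26 with control, below the array medians there, so its rise was at least 2.23 (limma adjusted p = 4.15e-08). ZNF165, a zinc finger gene, was at 7.80, 7.81 and 7.82 with mir-429 and 4.64, 5.22 and 4.26 with control (3.11 ± 0.37, limma adjusted p = 1.24e-05). COL8A1, a network-forming collagen, had 5.38, 5.46 and 5.31, against dim control values of 2.62, 3.51 and 2.24, and rose by at least 1.12 (limma adjusted p = 4e-06). In untransfected cells these 3 genes lay nearer to control, at 2.81, 4.85 and 2.97.

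Other large rises were those of genes whose control level at 24 h was below that of untransfected cells. ELOVL7, a fatty acid elongase, had 7.47, 7.12 and 7.14 with mir-429 and 4.47, 4.95 and 4.56 with control (2.58 ± 0.13, limma adjusted p = 4.8e-10), with untransfected cells at 6.27. The membrane protein LMBR1 was at 7.40, 6.39 and 6.41, against 4.17, 5.33 and 3.47 with control, and at 7.35 untransfected (2.41 ± 0.36, limma adjusted p = 0.000111). The RAB27 effector EXPH5 was at 8.57, 8.44 and 8.53, against 6.39, 6.19 and 5.99 with control and 7.37 untransfected (2.32 ± 0.12, limma adjusted p = 1.21e-09). For these genes the difference between arms was larger than that between mir-429 and untransfected cells.

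FGFBP1, a carrier that releases fibroblast growth factors from the matrix, had 9.13, 9.04 and 9.12 with mir-429, against 6.92, 7.29 and 7.27 with control (1.94 ± 0.17, limma adjusted p = 2.89e-07), and untransfected cells were at 8.98. SPOPL, an adaptor of ubiquitin ligases, rose by 2.37 ± 0.21, FECH, the last enzyme of heme synthesis, by 2.13 ± 0.28, the zinc finger gene ZNF367 by 2.11 ± 0.18, the hyaluronan-degrading CEMIP2 by 2.08 ± 0.24, the Wnt receptor FZD5 by 1.96 ± 0.16 and the secreted glutathione peroxidase GPX3 by 1.90 ± 0.38 (limma adjusted p of 0.00127 or less). For 8 of the 15 largest rises untransfected cells lay nearer to the mir-429 arm and for 7 nearer to control, against 1309 and 628 of all 1937 genes called higher. With the covariate 14 of the 15 were called, the exception being GPX3 (1.64 ± 0.57, limma adjusted p = 0.125), and without the 48 h arrays LMBR1 was lost too (2.03 ± 0.68, limma adjusted p = 0.142). Of all tested genes these models called 2.76% and 2.13% higher. The other bright probe sets of LMBR1 disagreed, with 3 of 5 higher.

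The 15 largest falls were taken in the same way, and for 2 of them, CD93 and KRTAP4-9, mir-429 was below the array medians. HMOX1, the oxygenase that degrades heme, had 7.22, 7.38 and 7.40 with mir-429 and 9.64, 9.89 and 10.19 with control (-2.58 ± 0.23, limma adjusted p = 5.61e-07). Untransfected cells had 6.42, 6.26 and 5.96, below both arms, and HMOX1 was the single gene among the 15 whose untransfected level lay nearer to mir-429. Over all 1488 genes called lower, untransfected cells lay nearer to mir-429 for 902 and nearer to control for 586. BCL2A1, an inhibitor of apoptosis, was at 7.85, 7.43 and 7.50, against 10.06, 9.41 and 10.21 with control (-2.30 ± 0.19, limma adjusted p = 1.65e-07). The membrane channel PANX1 had 9.39, 9.29 and 9.28 with mir-429 and 11.65, 11.46 and 11.49 with control (-2.21 ± 0.08, limma adjusted p = 1.19e-11). PANX1 and BCL2A1 stood in untransfected cells at 11.20 and 9.76, close to control. Of the 2 other bright probe sets of PANX1, one gave -1.90 and the other 0.24.

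OSTM1, a partner of a lysosomal chloride transporter, had 8.41, 7.98 and 8.003 with mir-429 and 10.17, 10.63 and 9.88 with control (-2.09 ± 0.15, limma adjusted p = 5.04e-08), with all 3 other bright probe sets lower by -2.24 to -1.39. B4GAT1, a glycosyltransferase of dystroglycan, was at 6.08, 5.69 and 5.96 with mir-429 and 8.05, 7.79 and 8.29 with control (-2.13 ± 0.14), but its other bright probe set gave -0.06. SHCBP1, which binds the adaptor SHC, was at 7.09, 7.14 and 6.90, against 9.37, 8.80 and 9.26 with control (-2.10 ± 0.17). The other falls were those of ZCCHC24 (-2.00 ± 0.19), SUSD5 (-1.76 ± 0.13), the actin-associated phosphatase subunit PPP1R18 (-1.70 ± 0.11), the surface receptor CD93 and the keratin-associated gene KRTAP4-9, besides WIPF1, LOX, PPM1F and FN1 named above. CD93 and KRTAP4-9 were dim with mir-429 and fell by at least 0.96 and 1.50, and KRTAP4-9 belongs to a family of near-identical genes whose probes may not separate. All 15 falls were called with the covariate, with and without the 48 h arrays (2.01% and 1.44% of all tested genes lower). All 30 genes of both sets were called when any 1 of the 6 arrays was left out, fits that called 9.26% to 19% of all tested genes higher and 7.2% to 12.3% lower. All were also called when only those 6 arrays were fitted (10.6% higher and 9.15% lower). The 30 were chosen for large differences without overlap on these same arrays, so such refits are not separate support.

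**Figure D3:**
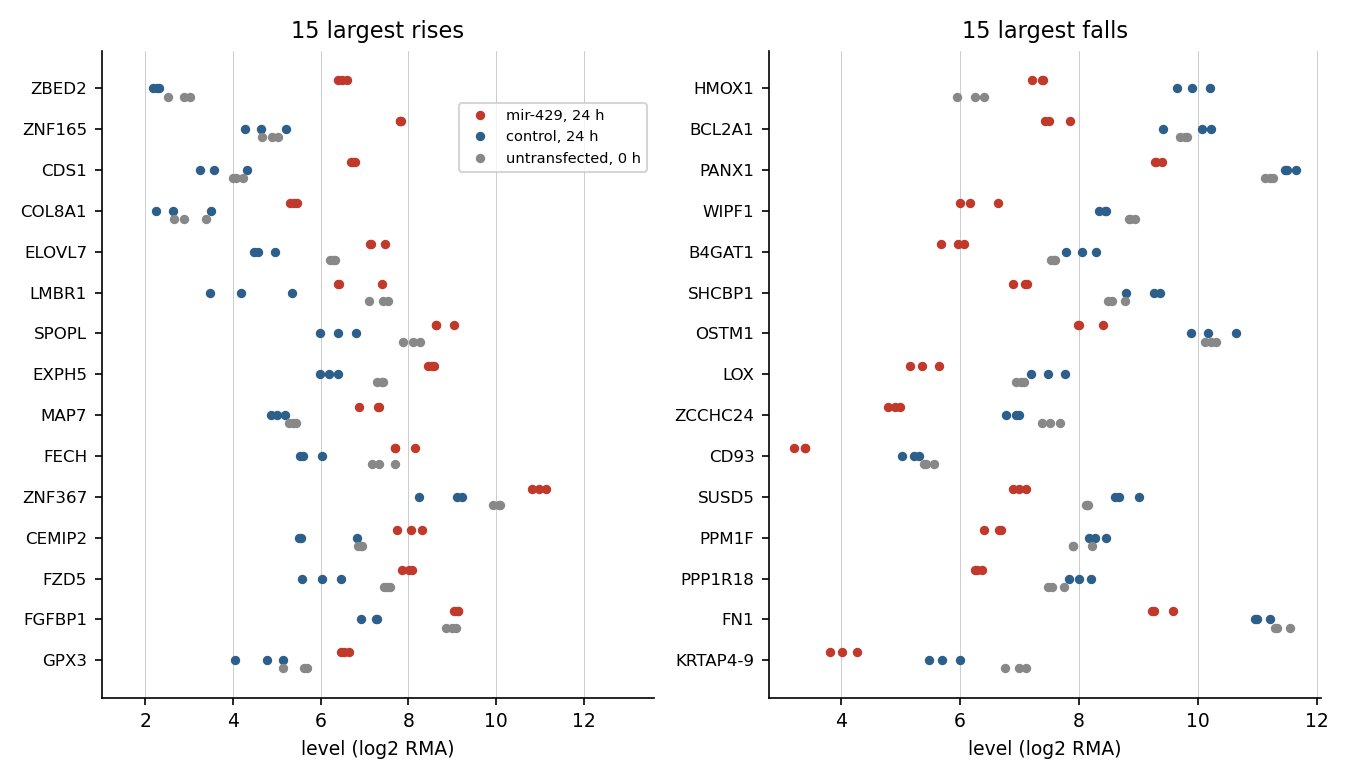
Level (log2 RMA) of the 15 largest rises (left) and the 15 largest falls (right) on each array, with red points for mir-429 at 24 h, blue for control at 24 h and grey for untransfected cells at 0 h. Genes were chosen so that the red and blue points do not overlap. The grey points lie nearer to blue for 14 of the 15 falls and for 7 of the 15 rises, against 586 of all 1488 genes called lower and 628 of all 1937 called higher.

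Genes of the mesenchymal state moved both ways. Of 36 tested members 9 (25%) were higher and 7 (19.4%) lower, against 15% and 11.6% of all tested genes. FERMT2, which activates integrins, was at 10.89, 10.78 and 10.86 with mir-429, against 11.96, 12.03 and 11.83 with control (-1.10 ± 0.09, limma adjusted p = 1.95e-07). WNT5B, a secreted Wnt ligand, changed by -1.33 ± 0.20 and smooth muscle actin (ACTA2) by -0.79 ± 0.15 (limma adjusted p = 0.000127 and 0.000843). Vimentin (VIM) was at 12.95, 13.05 and 13.04 with mir-429 and 13.12, 13.03 and 13.23 with control, overlapping (-0.11 ± 0.11, limma adjusted p = 0.496), and its other bright probe set gave 0.38. N-cadherin (CDH2) was at 12.59, 12.37 and 12.39, against 12.27, 12.21 and 12.06 with control (0.27 ± 0.09, limma adjusted p = 0.0333, and 0.55 with the covariate), a call also lost without control replicate 3 (limma adjusted p = 0.156) or mir-429 replicate 1 (0.169). With the covariate 3 members of the list were lower and 0 higher, against 2.01% and 2.76% of all tested genes.

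Of 54 tested matrix genes 10 (18.5%) were higher and 9 (16.7%) lower, against 15% and 11.6% of all tested genes. Beside the falls of LOX and FN1, thrombospondin 1 (THBS1), a matrix protein that activates TGF-beta, had 9.06, 8.84 and 8.85 with mir-429 and 7.66, 8.04 and 7.85 with control (1.06 ± 0.12, limma adjusted p = 1.03e-05). All 4 other bright probe sets of THBS1 were higher, by 0.28 to 2.37. EFEMP1, a fibulin, rose by 1.10 ± 0.11, and the basement membrane chain LAMA5 by 0.81 ± 0.15, whereas LAMA1 changed by -0.93 ± 0.16 (limma adjusted p of 0.000829 or less; 0.16 for LAMA1 with the covariate). Among proteases and their inhibitors 4 of 27 (14.8%) were higher and 6 (22.2%) lower. The collagenase MMP1 was at 7.72, 7.50 and 7.58 with mir-429 and 8.89, 8.89 and 8.94 with control (-1.30 ± 0.17, limma adjusted p = 3.74e-05), and untransfected cells were at 7.27. The sheddase ADAM9 rose by 1.00 ± 0.14. Of 12 integrin genes 1 (8.33%) rose and 2 (16.7%) fell, among them ITGA1, a collagen receptor subunit, by -1.14 ± 0.18 (limma adjusted p = 0.000194).

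Of 39 TGF-beta and YAP response genes 15 (38.5%) were higher and 2 (5.13%) lower, against 15% and 11.6% of all tested genes. The median was 0.30, and 22 had no call. PMEPA1, a TGF-beta target that dampens the pathway, was at 9.82, 9.67 and 9.82 with mir-429 and 8.78, 8.63 and 8.88 with control (1.01 ± 0.11, limma adjusted p = 6.99e-06). SKIL, a repressor of SMAD activity, rose by 0.98 ± 0.15, but only 2 of its 4 other bright probe sets rose. With the covariate 6 members of this list were higher and 0 lower, against 2.76% and 2.01% of all tested genes, and the median was 0.13.

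Of 38 genes of VEGF, EGF and FGF signalling 8 (21.1%) were higher and 2 (5.26%) lower, against 15% and 11.6% of all tested genes. FGF2 had 10.57, 10.44 and 10.42 with mir-429, against 8.85, 9.09 and 8.63 with control (1.62 ± 0.13, limma adjusted p = 1.79e-07). TGFA, a ligand of the EGF receptor, had 8.50, 8.56 and 8.48, against 6.96, 6.89 and 6.81 with control (1.62 ± 0.14, limma adjusted p = 3.09e-07), and untransfected cells were at 7.08. Both are ligands, as is NRG1, which rose by 0.72 ± 0.11 (limma adjusted p = 0.000182), although 1 of its 2 other bright probe sets gave -0.08. Of 22 Notch pathway genes 6 (27.3%) rose and 2 (9.09%) fell, among them the Notch ligand DNER at 7.75, 7.34 and 7.35 with mir-429 and 8.91, 8.63 and 9.09 with control (-1.39 ± 0.15, limma adjusted p = 4.08e-06).

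Of 37 cytokine and NF-kB genes 11 (29.7%) were lower and 5 (13.5%) higher, with a median of -0.03. Of all tested genes 11.6% were lower and 15% higher. The interleukin IL1B had 5.93, 5.90 and 5.70 with mir-429 and 7.29, 7.53 and 7.46 with control (-1.59 ± 0.13, limma adjusted p = 1.71e-07), and its other bright probe set gave -1.65. Both arms lay below untransfected cells, at 9.35. The growth factor of granulocytes CSF3 changed by -1.22 ± 0.12, the neutrophil chemokine CXCL8 by -1.14 ± 0.15 and the related CXCL1 by -0.92 ± 0.12, while the interleukin IL18 rose by 0.61 ± 0.10 (limma adjusted p of 0.000352 or less for these 4). With the covariate 4 members were lower and 2 higher, against 2.01% and 2.76% of all tested genes. Interferon response genes mostly had no call, with 5 of 44 (11.4%) higher and 3 (6.82%) lower. The ubiquitin ligase DTX3L was at 10.09, 10.13 and 10.05 with mir-429 and 8.42, 8.55 and 8.23 with control (1.69 ± 0.12, limma adjusted p = 4.09e-08). Of 18 antigen presentation and checkpoint genes 2 (11.1%) rose and 1 (5.56%) fell. CD274, the immune checkpoint ligand PD-L1, had 8.62, 8.35 and 8.52, against 7.08, 7.25 and 7.01 with control (1.39 ± 0.20, limma adjusted p = 8.72e-05; 0.061 with the covariate), and its other bright probe set gave 0.22.

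Of 44 oxidative stress, heme and iron genes 8 (18.2%) were higher and 5 (11.4%) lower, shares near those of all tested genes (15% and 11.6%). BACH1, the heme-regulated repressor of HMOX1, was at 9.08, 8.74 and 8.73 with mir-429 and 7.58, 8.19 and 7.11 with control (1.22 ± 0.20, limma adjusted p = 0.00028), and was still called with the covariate (1.10, limma adjusted p = 0.0486) but not when the 48 h arrays were left out of that model too (1.02, 0.159), and untransfected cells were at 8.75. Its other bright probe set gave 0.24. BACH1 and FECH were higher and HMOX1 lower in the mir-429 arm. In untransfected cells all 3 lay nearer to the mir-429 than to the control level. A link between these changes was not tested. Among BCL2 family genes 2 of 19 (10.5%) rose and 4 (21.1%) fell, with the pro-apoptotic BIK at 0.67 ± 0.12 beside the fall of BCL2A1. Of 34 lysosome genes 4 (11.8%) rose and 8 (23.5%) fell, led by OSTM1 and the peptidase TPP1 (-0.76 ± 0.09, limma adjusted p = 1.52e-05), whose 3 other bright probe sets ran from -0.24 to 0.24. Of 13 pannexin, connexin and volume channel genes 1 (7.69%) rose and 3 (23.1%) fell, PANX1 by far the most.

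In the early secretory pathway the coat subunits SEC23A and SEC24A moved in opposite directions. SEC23A fell, as given above, with its other bright probe set at -0.40. SEC24A, its partner in the COPII coat, had 10.10, 9.75 and 9.83 with mir-429, against 8.52, 8.15 and 8.45 with control (1.52 ± 0.12, limma adjusted p = 1.03e-07). The 2 other bright probe sets of SEC24A gave 0.32 and 0.48. The cargo receptor subunit MCFD2 was at 9.99, 9.97 and 10.01 with mir-429 and 11.21, 11.21 and 11.03 with control (-1.16 ± 0.10, limma adjusted p = 1.97e-07), and its other bright probe set gave -0.32. In all 7 of 29 genes of this list (24.1%) rose and 3 (10.3%) fell, against 15% and 11.6% of all tested genes. With the covariate 1 rose and 2 fell, against 2.76% and 2.01% of all tested genes. Of 65 mitosis genes 16 (24.6%) were higher and 5 (7.69%) lower, and of 60 genes of G1 and S phase 12 (20%) were higher and 6 (10%) lower, with medians of 0.13 and 0.07, against 15% and 11.6% of all tested genes. MAD2L1, of the spindle checkpoint, rose by 0.76 ± 0.14, and cyclin E1 (CCNE1) changed by -0.68 ± 0.11 (limma adjusted p = 0.000789 and 0.000274). Leaving out control replicate 3 left 6 mitosis genes higher and 2 lower. Leaving out mir-429 replicate 2 or 3 left 9 or 10 higher and 3 lower. Of all tested genes these fits called 9.26%, 12.8% and 12.4% higher and 7.42%, 9.21% and 9.77% lower. Without mir-429 replicate 1, 7 genes of G1 and S phase were higher and 3 lower, and 2 mitosis genes were lower. That fit called 10.3% of all tested genes higher and 7.2% lower. For all 16 risen mitosis genes untransfected cells lay nearer to the mir-429 arm, as they did for 1309 of all 1937 genes called higher. With the covariate 2 mitosis genes were higher and 0 lower, and 2 genes of G1 and S phase were higher and 1 lower. Of all tested genes 2.76% were higher and 2.01% lower with it. Of 29 p53 targets 9 (31.0%) rose and 5 (17.2%) fell, the largest being SESN1, a stress-induced regulator of growth signalling, at -1.03 ± 0.11.

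Most calls of the other lists were lost with the covariate, a model in which the SEs were larger, so a lost call does not show a lost difference. Of all tested genes 15% were higher and 11.6% lower without the covariate, and 2.76% and 2.01% with it. MicroRNA machinery genes had 8 of 31 higher and 1 lower, and 0 of either with the covariate, with medians of 0.09 with it and 0.12 without. Polycomb and DNA methylation genes had 9 of 35 higher and 1 lower, and 0 of either with it, with medians of 0.09 with it and 0.14 without. Sterol and fatty acid synthesis genes had 9 of 29 higher and 6 lower, and 1 each with it, the cholesterol carrier STARD4 at 1.20 ± 0.18 and the desaturase SCD at -0.70 ± 0.16. Hypoxia and glycolysis genes had 9 of 40 higher and 6 lower, and 1 each with it. Nuclear respiratory chain genes had 3 of 69 higher and 11 lower, RAB genes 6 of 47 in each direction, proteasome genes 4 of 33 in each direction and unfolded protein and amino acid stress genes 6 of 36 higher and 3 lower. AP-1 and immediate early genes had 4 of 23 higher and 2 lower, and 354 genes with a ZNF symbol had 33 higher and 36 lower. With the covariate these 6 lists together kept few calls, the most being 4 higher and 3 lower among ZNF genes. Cytosolic ribosomal protein genes had the smallest share of calls among the 33 lists, with 0 of 52 higher and 1 lower (RPL36, -0.35 ± 0.12, whose arms overlapped and whose call was lost when control replicate 1 or 3 or mir-429 replicate 1 or 3 was left out, at limma adjusted p of 0.0951 to 0.167).

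**Figure D4:**
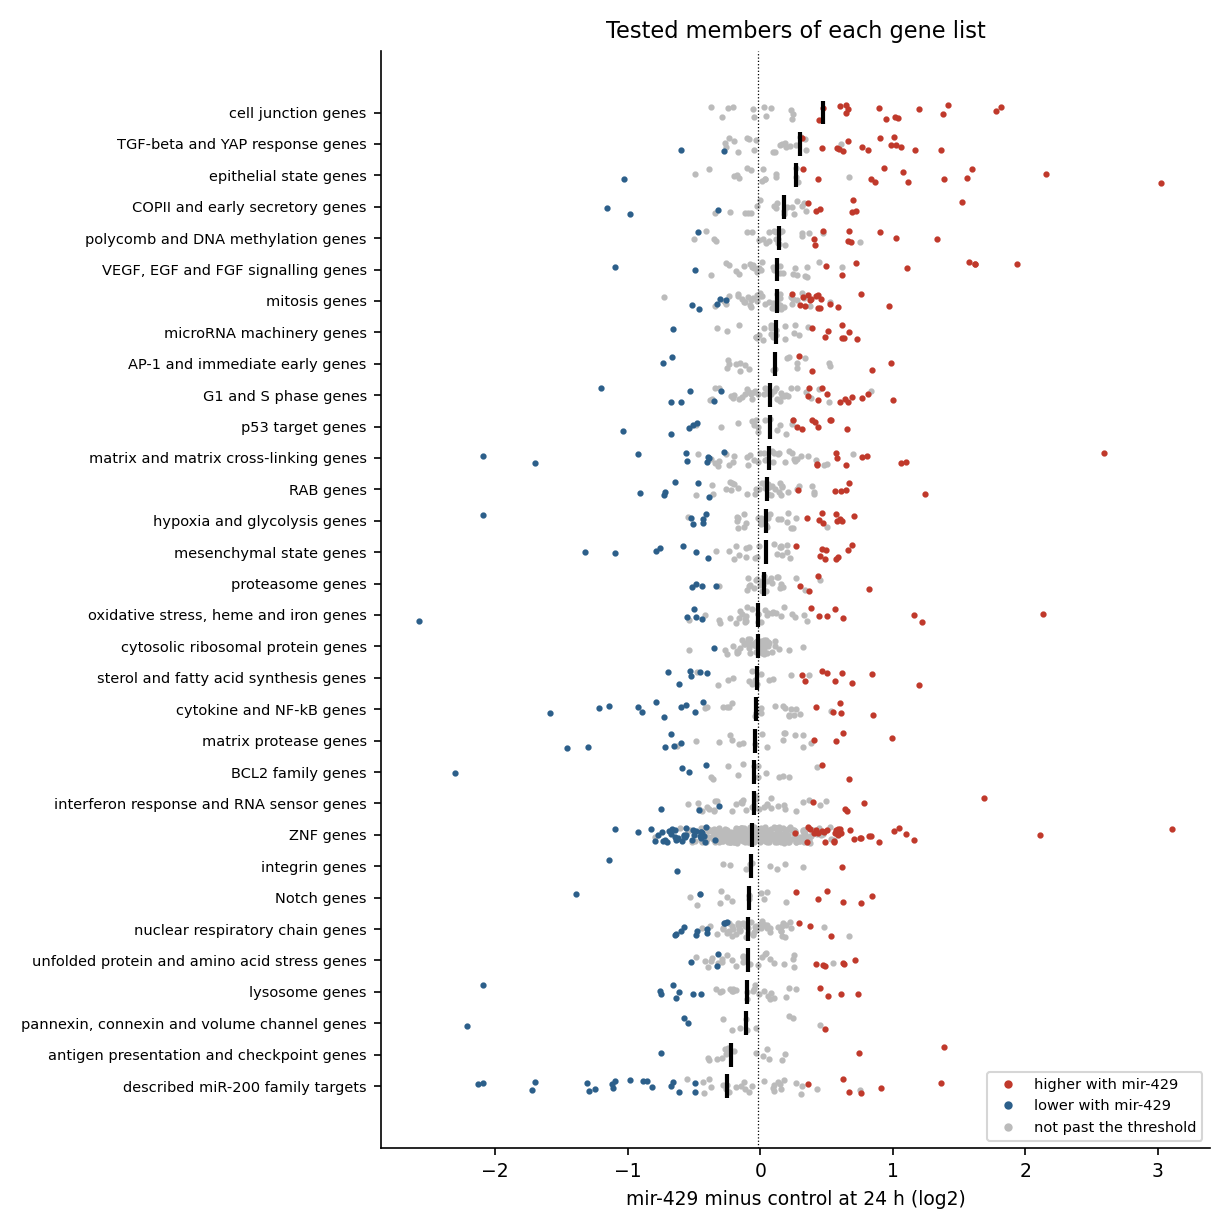
Difference between mir-429 and control at 24 h (log2) of each tested member of the gene lists described, ordered by their medians (black bars). Red points were higher, blue points lower and grey points not past the threshold, and the dotted line marks the median of all tested genes at -0.02; cell junction genes stand at the top (median 0.48) and described miR-200 family targets at the bottom (median -0.25).

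The covariate moved the named genes unequally. It lowered the estimate of FECH to 1.43 ± 0.35, against 2.13 ± 0.28 without it, and raised that of MYO5B to 1.92 ± 0.26, against 1.56 ± 0.18. The estimate of RBBP4, a histone chaperone, was 0.67 ± 0.34 with the covariate and 1.33 ± 0.26 without it, and its call was lost (limma adjusted p = 0.32).

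**Figure D5:**
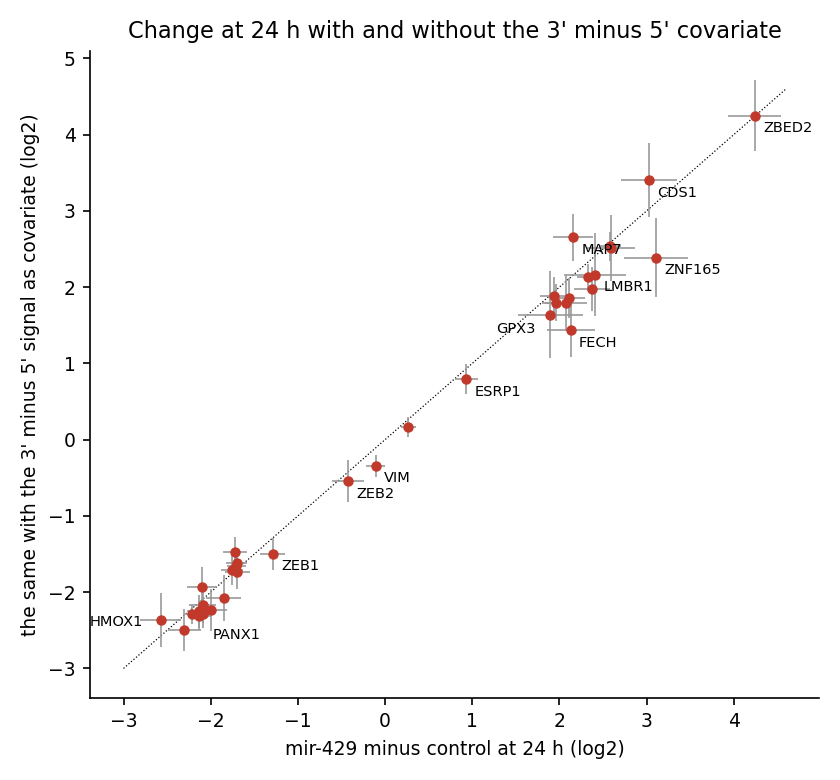
Difference between mir-429 and control at 24 h (log2) with the 3′ minus 5′ control signal as a covariate (vertical axis) against the difference without it (horizontal axis), for the 30 largest changes and for ZEB1, ZEB2, ESRP1, VIM and CDH2, with bars of 1 SE and a dotted line of equality. The points follow the line, with ZNF165 at 3.11 without and 2.39 with the covariate and MAP7 at 2.16 and 2.65.

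Against the later times, the 24 h difference changed for many genes. It differed from that at 144 h for 2396 genes (limma adjusted p under 0.05 for the difference of differences). It was more positive at 24 h than at 144 h for 1582 (12.3%) and more negative for 814 (6.32%). It differed from that at 48 h for 630 genes, more positive at 24 h for 405 (3.14%) and more negative for 225 (1.75%). At 48 h 1200 genes (9.32%) were called higher and 1449 (11.3%) lower, and at 144 h 191 (1.48%) and 563 (4.37%). Of the 15 largest rises 14 were called higher at 48 h and 6 at 144 h, and of the 15 largest falls 15 were called lower at 48 h and 3 at 144 h. At the 3 times in order ZEB1 stood at -1.29, -1.72 and -0.14, and FN1 at -1.70, -2.66 and -0.12. FGFBP1 differed from this, at 1.94, 1.60 and 2.79. With the covariate 1272 genes differed between 24 and 144 h and 2 between 24 and 48 h. The mean 3′ minus 5′ signal at 48 h was 8.55 with mir-429 and 7.83 with control, with overlapping arms. At 24 h the order was the reverse, with 2.87 and 4.21.

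Both arms at 24 h differed from untransfected cells. Against 0 h, 1513 genes (11.7%) were higher and 1453 (11.3%) lower in the mir-429 arm, and 2352 (18.3%) higher and 2545 (19.8%) lower in the control arm. These comparisons share their untransfected arrays, so their counts are given side by side only.

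Markers of other cell types were looked at by class. Of 16 leukocyte markers with a probe set 14 were too dim to test, PTPRC, CD3E, CD14 and LYZ among them, and 0 of the 2 tested were called. Of 11 tested endothelial markers 3 (27.3%) were lower, against 11.6% of all tested genes, CD93 and TIE1 (-0.79 ± 0.19) among them, while VWF, CD34 and TEK were dim. Their summed level (log2 of the sum of linear values) was 10.51 to 10.69 with mir-429 and 11.16 to 11.29 with control. Of 6 tested fibroblast markers 2 (33.3%) were lower, with sums of 8.65 to 8.78 with mir-429 and 9.12 to 9.31 with control, and COL1A2, COL3A1, DCN and LUM were dim. No mesothelial marker of 7 was called. Their part in the results was not tested. Of the ovarian carcinoma and Mullerian markers, KRT7 was bright, at 11.07 in untransfected cells, and so was PAX8, at 11.01 there and lower with mir-429 than with control (-0.85 ± 0.15, with 6 of 7 other bright probe sets lower), while MUC16, ESR1, CLDN4 and EPCAM were below the array medians.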

How the data were processed

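RNA from HEY cells was amplified with a kit directed at 3′ ends, per the labels' protocols, and hybridised to human 3′ expression arrays with 54675 probe sets, 1 array per sample, 3 arrays in each of 7 groups. The authors deposited log2 values made with RMA, per the submitters' processing notes, with no software or version given in the sources used. The deposited values ran from 0.75 to 14.97, with array medians from 3.95 to 4.29, and were used as they are. The number of arrays limits the precision.

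Probe sets were named from the platform annotation: 41097 had 1 gene symbol, 1801 several and 11777 none, and 99.9% of those with 1 symbol were matched to RefSeq through the Entrez ID. Of several probe sets for a gene the one brightest on average across the series was used, and 12879 of 19775 genes were tested, those above the array median on at least 3 of the 21 arrays. The other 6896 were set aside as dim. Differences (mir-429 minus control) came from limma 3.58.1, run under R 4.3.3 with lmFit and eBayes, on the means of all 7 groups, with 14 residual degrees of freedom, two-sided, with Benjamini-Hochberg adjustment over all tested genes and a threshold of 0.05. An SE thus pools the spread of 7 groups. Where a group's mean lay below the array medians, a bound was computed from values raised to each array's median. Another probe set counted as bright when it passed the same filter. The 3′ minus 5′ signal was tested with an exact permutation test over 3 and 3 arrays, with a smallest p of 0.1. The same script was tested on simulated data.

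The genes named are the 15 largest rises and falls past the threshold whose arms do not overlap, up to 4 members per list and direction with the smallest p, and ZEB1, ZEB2, CDH1, EPCAM, ESRP1, VIM, FN1 and CDH2. The members, the 33 gene lists, the 5 marker lists and the tests were chosen with earlier results of these data known. The positions of untransfected cells and the other probe sets were looked at after the data were seen. Alternatives were other normalizations, filters, probe sets per gene, spread models, sets of arrays, the covariate, a replicate block and leaving out each array. Replicate numbers were not taken to pair the samples. One gene list and one control transcript are not reported here. 3′ UTR sequences were not used here, so seed matches were not counted.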

Additional observations from a re-analysis of the deposited data

Results flagged for a closer look

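The 16 genes given here are a chosen part of the genes named at 24 h. For each, the difference between mir-429 and control at 24 h differed from that at 144 h by a test of the difference itself (limma on all 21 arrays, adjusted p under 0.05). Genes that passed were kept if they were among ZEB1, ZEB2, CDH1, EPCAM, ESRP1, VIM, FN1 and CDH2, or were called at both times in opposite directions. Named genes left out here may also have changed. All values are log2 differences, mir-429 minus control, and the last is that at 24 h minus that at 144 h.

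ZEB1 was at -1.29 at 24 h and -0.14 at 144 h, a change of -1.15, and FN1 was at -1.70 and -0.12, a change of -1.59. CDH2 was at 0.27 and -0.14, a change of 0.41.

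Among the others, the collagenase MMP1 was at -1.30 at 24 h and 2.08 at 144 h (-3.39), the interleukin IL1B at -1.59 and 1.28 (-2.87), and thrombospondin 1 (THBS1) at 1.06 and -1.35 (2.41). The stress cytokine GDF15 was at -0.68 and 0.82 (-1.50), with 1 of its 2 other bright probe sets at 0.19 at 24 h, the fibronectin receptor subunit ITGA5 at -0.63 and 0.45 (-1.07) and the endothelial guidance receptor ROBO4 at -0.69 and 0.45 (-1.14), with its other bright probe set at 0.00025 at 24 h.

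The cell cycle factors E2F2 and E2F8 were at 0.81 and 0.77 at 24 h and at -1.14 and -0.56 at 144 h, changes of 1.95 and 1.33. The Notch target HES1 was at 0.85 and -0.58 (1.43), with its other bright probe set at -0.25 at 24 h, and TLR3, a sensor of double-stranded RNA, was at 0.64 and -1.10 (1.73), with its other at 0.043 at 24 h. The metabolic genes ACSS2, ASNS and SREBF2 were at -0.53, -0.33 and -0.45 at 24 h and at 0.55, 0.59 and 0.51 at 144 h, changes of -1.08, -0.91 and -0.96. The arrays of 144 h had a mean 3′ minus 5′ control signal of 3.35 with mir-429 and 3.90 with control. These were closer to each other than at 24 h (2.87 and 4.21). With this signal as a covariate 1272 of all tested genes differed between 24 and 144 h, against 2396 without it. Its part in the change of each gene given here is not reported.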

How the results depend on the processing

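The covariate and the array weights moved the counts most. With the 3′ minus 5′ covariate 355 genes were higher and 259 lower, without the 48 h arrays 274 and 185, and with array weights 3448 and 2757. The probe set with the largest SD gave 906 lower. Epithelial state genes called higher numbered 7 with genes bright on all 6 arrays, 7 with the mean of probe sets, 7 with the covariate and 7 with it and without the 48 h arrays, where junction genes called higher numbered 9. With the covariate 1272 genes changed between 24 and 144 h and 2 between 24 and 48 h. The 3′ minus 5′ difference was -0.84 for GAPDH, -1.84 for ACTB and -0.59 against the middle probe sets. Quantile normalization gave 1776 higher and 1675 lower, a share of higher calls of 51.5%, against 56.6%.

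Leaving out 1 array at a time gave 1193 to 2444 genes higher, 927 to 1589 lower, 13 to 15 junction genes and 9 to 12 epithelial state genes higher, 19 to 21 described targets lower and a 3′ minus 5′ difference of -1.53 to -1.17. ZNF genes called higher ran from 16 without control replicate 3 to 54 without control replicate 2, also 20 and 21 without mir-429 replicates 1 and 3, against 33. Of all tested genes these fits called 9.26%, 19%, 10.3% and 12.4% higher, against 15% with all arrays. Calls of the smaller lists moved too when 1 array was left out. Same-numbered arrays of the arms had deviations correlated at 0.28, 0.09 and 0.18, and mir-429 replicate 2 correlated best with control replicate 3 (0.10), so the numbers were not taken as pairs. A fit with the replicate number as a block called 1937 higher and 1552 lower, and the paired 3′ minus 5′ difference was -1.34.

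Some named genes changed sign with another choice of probe set. The mean of probe sets put HK2 at -0.027, NDUFC1 at 0.044 and VIM at 0.14. The probe set of largest SD put ADAMTS12 at -0.030, ADAMTS5 at 0.14, ARHGAP29 at -0.36, ATF3 at -0.49, ATF6 at 0.36, BNIP3L at -0.11, BUB1 at -0.16, CDK6 at -0.33, FBXO22 at 0.089, FSTL1 at -0.090, GDF15 at 0.19, HES1 at -0.25, HK2 at -0.51, IFIT5 at 0.28, MAFG at 0.13, MCM5 at 0.053, NDUFC1 at 0.67, PAX8 at 0.074, RAB18 at -0.17, RAB40C at 0.34, ROBO4 at 0.00025, TEAD1 at -0.045 and VIM at 0.38. With the covariate and without the 48 h arrays RAB24 was at 0.066. The causes were not tested.

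Over all genes called higher, 65.4% of 2358 other bright probe sets were higher too, with a median of 0.18, against 0.59 for the probe sets used. For genes called lower 74.2% of 1580 were lower, with a median of -0.24, against -0.55. Among genes without a call 58.3% of 8289 had the direction of the probe set used. Genes below the array medians cannot be ordered.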

Other observations

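The position of untransfected cells between the arms of 24 h varied among the gene lists. For the risen sterol and fatty acid synthesis genes all 9, and for the lower nuclear respiratory chain genes all 11, lay nearer to the mir-429 arm. This was so for 1309 of all 1937 genes called higher and 902 of all 1488 called lower. All 3 lower genes of the early secretory pathway lay nearer to control, as did 586 of all 1488 genes called lower. Of the 11 lower cytokine and NF-kB genes 8 lay nearer to mir-429, as did 902 of all 1488 genes called lower. These counts were chosen after the data were seen and use the arrays that made the calls.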
